A study of Mus musculus with 24 samples.

Results

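*Tfeb*, *Tfe3* and *Mitf* are the 3 expressed genes of the MiT/TFE family, and they were taken by gene symbol from the 55487 genes of the deposited count table, together with the 37 of 142699 transcripts that the deposited transcript table assigns to them. The family encodes transcription factors with a basic helix-loop-helix and leucine zipper region that bind DNA as homodimers or as heterodimers with each other. TFEB and TFE3 are known for switching on lysosomal and autophagy genes once MTORC1 no longer phosphorylates them and they leave the cytosol for the nucleus, whereas MITF is best known from melanocytes and osteoclasts. Each gene has several first exons, and the *Mitf* ones are used in different cell types, the A type broadly and the M type mainly in melanocytes. The fourth member, *Tfec*, had 0 counts in all 24 libraries, which allows a level of up to 0.122 CPM (counts scaled to library size) in the shallowest library.

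Polyadenylated RNA was sequenced from MEFs (mouse embryonic fibroblasts) of 2 genotypes, wild type (WT) and *tfeb tfe3* double knockout (DKO). Cells of each genotype received DMSO as vehicle, torin1, a catalytic inhibitor of MTOR, or MK-8722, a direct activator of AMPK, with 4 libraries in each of the 6 groups. The labels give passages 7, 8, 9 and 11 for the WT libraries and 8, 9, 10 and 11 for the DKO libraries of every treatment, and a single batch. The number of separate lines behind each genotype is not given in the sources used here, so genotype and line cannot be told apart, and p-values measure the spread between cultures. In bulk samples, fewer cells of a type and less RNA per cell cannot be told apart either.

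Library totals ran from 24668921 to 33332562 estimated counts. The 14 fibroblast markers summed to between 6797 and 10665 CPM per library, with 10 of the 14 above a mean of 1 CPM. The 12 melanocyte markers summed to between 0.466 and 2.18 CPM, with 3 of them at 0 in every library. The 12 macrophage or osteoclast markers summed to 1.98 to 15.1 CPM and moved with the groups, with *Adgre1*, *Tyrobp* and *Calcr* at 0 in every library and 1 of the 12, *Cd68*, which encodes a lysosomal membrane protein, above a mean of 1 CPM. The 7 epithelial markers summed to 2.85 to 14.6 CPM, with 10.0 to 14.6 CPM in DKO under torin1 against 2.90 to 4.74 CPM in DKO under DMSO. The RNA integrity number of the labels was 7.9 for DKO MK-8722 replicate 3 and 9.7 to 9.9 for the other 23 libraries, and all 27 gene-level results for the family kept their direction and their side of the threshold without that library. The 3 WT libraries of passage 11 stood apart from the other 9 WT libraries, with *Isg15*, an interferon-stimulated gene picked after its values were seen, at 200.3 to 239 CPM against 10.9 to 29.2 CPM. The 12 DKO libraries held 133 to 309 CPM of *Isg15*. All 27 gene-level results for the family kept their direction and their side of the threshold without those 3 WT libraries.

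The 3 genes lie on the plus strand of GRCm38, *Tfeb* (ENSMUSG00000023990) at chr17:47737030-47792419, *Tfe3* (ENSMUSG00000000134) at chrX:7762560-7775202 and *Mitf* (ENSMUSG00000035158) at chr6:97807052-98021349. They have 15, 14 and 8 annotated transcripts. A different first exon need not mean a different annotated start codon. The first 30 coding bases are shown for some transcripts of each gene, with the start codon in capitals. In *Mitf* they are shown for the A-type transcript Mitf-202 (start codon at position 97807184), for Mitf-203 (97929878) and for the M-type transcript Mitf-208 (97991921), which begin differently. In *Tfe3*, Tfe3-201 begins at position 7762945 and Tfe3-204 at 7766640, downstream. Tfe3-206 and Tfe3-211, whose first exons overlap that of Tfe3-201, also begin at 7766640. In *Tfeb*, Tfeb-202 begins at 47785987 and Tfeb-201 at 47785810. Tfeb-204 has another first exon than Tfeb-202 and the same start codon.
Mitf-202 coding start: ATGcagtccgaatcgggaatcgtggcggat
Mitf-203 coding start: ATGgaggcgcttagatttgagatgctcatc
Mitf-208 coding start: ATGctggaaatgctagaatacagtcactac
Tfe3-201 coding start: ATGtctcatgcagccgagccagctcgggac
Tfe3-204 coding start: ATGtcatcttcttcatcacgggtcttgctg
Tfeb-202 coding start: ATGgcgtcacgcatcgggctgcgcatgcag
Tfeb-201 coding start: ATGgctcagctcgctcagtggtcttgggca

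The 250 bases upstream of RefSeq starts (GRCm38.p6) are shown for the *Mitf* A-type start (chr6:97806808-97807057), the *Mitf* M-type start (chr6:97991533-97991782) and the upstream and middle *Tfe3* starts (chrX:7762411-7762660 and chrX:7763693-7763942), because the level of *Mitf* and the start share of *Tfe3* differed between groups. All 8 RefSeq promoters of the 3 genes were searched on both strands for CACGTG (the E-box that the family binds), CATGTG with its reverse complement CACATG, and TGACGTCA (the cAMP response element). One match was found, a TGACGTCA 153 bases before the M-type *Mitf* start, in capitals below. Of 32851 RefSeq promoter windows of the same length, 6.02% held CACGTG, 12.3% CATGTG or CACATG, and 1.55% TGACGTCA.
Mitf A-type promoter: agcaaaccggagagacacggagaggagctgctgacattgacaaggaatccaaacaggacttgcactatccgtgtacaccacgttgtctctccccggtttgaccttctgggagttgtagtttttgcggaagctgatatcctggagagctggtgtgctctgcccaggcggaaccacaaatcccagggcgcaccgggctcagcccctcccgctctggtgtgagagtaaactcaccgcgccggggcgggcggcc
Mitf M-type promoter: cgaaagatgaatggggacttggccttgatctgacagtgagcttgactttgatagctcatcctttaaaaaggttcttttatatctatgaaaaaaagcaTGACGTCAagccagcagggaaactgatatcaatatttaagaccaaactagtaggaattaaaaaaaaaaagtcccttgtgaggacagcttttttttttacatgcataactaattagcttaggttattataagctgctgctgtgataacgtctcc
Tfe3 upstream promoter: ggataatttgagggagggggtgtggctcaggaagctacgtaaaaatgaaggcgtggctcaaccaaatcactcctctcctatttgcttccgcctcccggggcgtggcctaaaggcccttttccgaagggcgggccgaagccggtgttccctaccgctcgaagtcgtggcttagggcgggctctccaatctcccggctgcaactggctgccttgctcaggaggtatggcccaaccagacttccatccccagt
Tfe3 middle promoter: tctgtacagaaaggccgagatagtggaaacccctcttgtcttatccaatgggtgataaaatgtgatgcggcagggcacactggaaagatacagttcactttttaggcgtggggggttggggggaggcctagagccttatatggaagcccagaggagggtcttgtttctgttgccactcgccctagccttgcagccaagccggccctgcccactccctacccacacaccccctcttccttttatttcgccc

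In WT MEFs under DMSO, *Tfe3* made up most of the family's RNA per length. Its level was 72.6 ± 2.35 TPM (counts scaled to transcript length and library size; SD, n = 4), against 17.3 ± 1.35 TPM for *Tfeb* and 4.69 ± 0.606 TPM for *Mitf*. The ranges of the 3 genes did not overlap in this group. In DKO MEFs under DMSO the order of the lower 2 genes was the other way round, with 72.1 ± 2.03 TPM of *Tfe3*, 15.6 ± 2.23 TPM of *Mitf* and 1.88 ± 0.614 TPM of *Tfeb*. Torin1 and MK-8722 left that order in place in both genotypes, with *Tfe3* at 49.3 ± 1.36 and 59.4 ± 1.89 TPM in WT and 55.9 ± 2.47 and 70.1 ± 5.80 TPM in DKO.

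*Tfeb*, the gene named in the knockout, was lower in DKO than in WT MEFs under each treatment but was not absent. Under DMSO the WT libraries held 23.5, 22.4, 25.0 and 20.9 CPM and the DKO libraries 1.95, 2.22, 2.19 and 2.65 CPM. The remaining RNA amounted to 9.80% of the WT level under DMSO, 9.86% under torin1 and 11.6% under MK-8722. The groups did not overlap, and the log2 fold changes were −3.35, −3.34 and −3.10, with an adjusted p of 1.51e-17 or below in each by edgeR's quasi-likelihood model, Benjamini-Hochberg adjusted. In counts, a DKO library held between 36 and 66 reads of *Tfeb*.

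*Tfe3*, the other gene named in the knockout, was not lower in DKO MEFs in this readout. Under DMSO its level was 119.2, 121.8, 119.4 and 120.5 CPM in WT and 126, 123, 121 and 123 CPM in DKO, and the ranges overlapped. The log2 difference was 0.04 (SE 0.03, 95% interval −0.03 to 0.11). It was 0.20 under torin1 and 0.23 under MK-8722, where the groups did not overlap and the adjusted p was 7.29e-06 and 8.34e-07 by edgeR's quasi-likelihood model, Benjamini-Hochberg adjusted, both below the 1.2-fold needed for a call. The level of *Tfe3* RNA therefore gives no check of the genotype, which was taken from the labels.

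*Mitf*, which the labels do not name as targeted, was higher in DKO than in WT MEFs under every treatment. The WT libraries held 9.96, 8.76, 11.2 and 9.34 CPM under DMSO, and the DKO libraries 35.8, 27.3, 31.5 and 27.2 CPM. No WT library under any treatment came above 11.2 CPM and no DKO library below 18.5 CPM. The difference was 3.11-fold under DMSO (95% interval 2.57 to 3.77), 4.75-fold under torin1 (3.91 to 5.77) and 3.87-fold under MK-8722 (3.16 to 4.74). In log2 terms these were 1.64 (SE 0.13), 2.25 (SE 0.14) and 1.95 (SE 0.14), with an adjusted p of 3.22e-10 or below in each by edgeR's quasi-likelihood model, Benjamini-Hochberg adjusted. At each of the 3 passages that both genotypes share, *Mitf* was higher in DKO, by 1.29 to 2.03 on the log2 scale under DMSO, 2.19 to 2.36 under torin1 and 1.61 to 2.58 under MK-8722. Beside these levels, the macrophage or osteoclast sum was 1.98 to 2.68 CPM in WT and 4.26 to 6.397 CPM in DKO under DMSO, 4.98 to 7.52 and 5.05 to 8.91 CPM under torin1, and 11.1 to 15.1 and 8.02 to 11.7 CPM under MK-8722, and its part in the result was not tested. The genotype contrasts thus called *Tfeb* and *Mitf*, 2 of the 3 genes, under each treatment, where 48.2% of all 15401 genes tested were called under DMSO, 51.8% under torin1 and 48.7% under MK-8722.

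**Figure D1:**
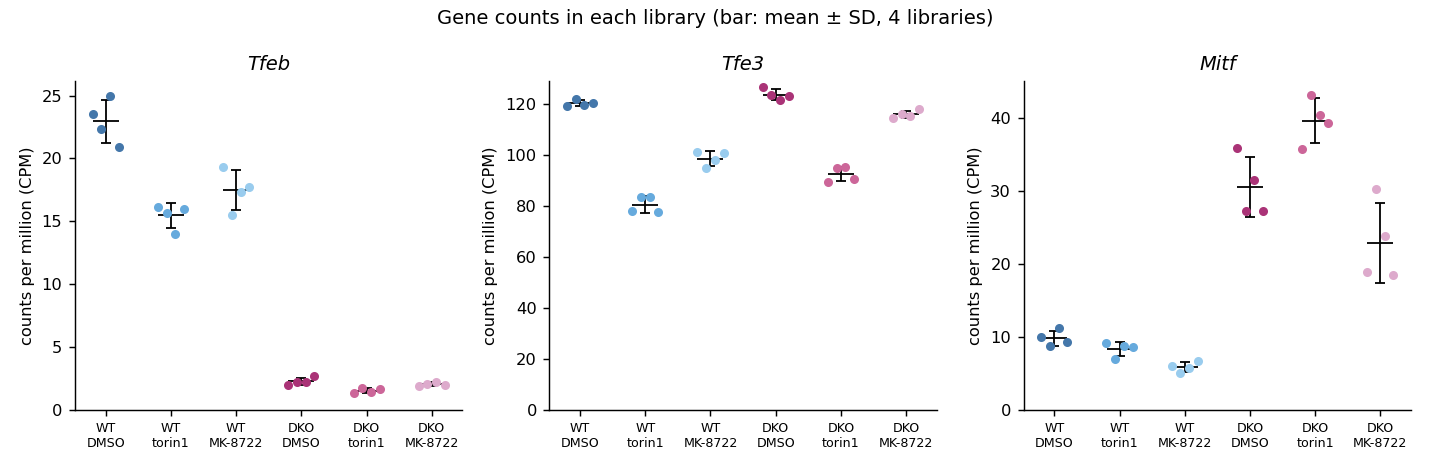
Level of *Tfeb*, *Tfe3* and *Mitf* in CPM in the 24 libraries, by genotype and treatment, with 1 point per library and bars for the mean ± SD of 4 libraries. *Tfeb* sits at 1.34 to 2.65 CPM in all 12 DKO libraries, *Mitf* sits higher in every DKO than in every WT library, and *Tfe3* is lowest under torin1 in both genotypes.

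Torin1 lowered *Tfe3* and *Tfeb* in both genotypes, while *Mitf* was not called in WT and rose in DKO. In WT MEFs, *Tfe3* went from 120.2 ± 1.17 to 80.5 ± 3.26 CPM (SD, n = 4), a log2 change of −0.58 (SE 0.03, adjusted p = 6.25e-13 by edgeR's quasi-likelihood model, Benjamini-Hochberg adjusted). *Tfeb* fell by 0.57 on the log2 scale, from 22.9 ± 1.74 to 15.5 ± 0.989 CPM (adjusted p = 1.49e-06). *Mitf* read 9.80 ± 1.03 and 8.34 ± 0.950 CPM with overlapping ranges, a log2 difference of −0.23 that did not pass the test (95% interval −0.52 to 0.06, adjusted p = 0.159). Of the 3 genes 2 were called, where 47.1% of all genes tested were.

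In DKO MEFs under torin1, *Tfe3* fell by 0.42 on the log2 scale (SE 0.03) and the remaining *Tfeb* RNA by 0.56 (SE 0.12). *Mitf* rose, from 30.5 ± 4.11 to 39.6 ± 3.10 CPM, a log2 change of 0.38 (SE 0.13, adjusted p = 0.0133 by edgeR's quasi-likelihood model, Benjamini-Hochberg adjusted). The torin1 libraries held 35.7, 43.1, 40.4 and 39.2 CPM, and the lowest of them was just under the highest DMSO library, at 35.8 CPM. Within passages, torin1 exceeded DMSO at all 4 DKO passages, by 0.27 to 0.52 on the log2 scale. All 3 genes were called, where 43.2% of all genes tested were. Without DKO DMSO replicate 2 or replicate 4 the log2 change of *Mitf* was 0.32 and no longer passed the threshold.

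The response of *Mitf* to torin1 differed between genotypes by 0.61 on the log2 scale (SE 0.19, adjusted p = 0.0301 by edgeR's quasi-likelihood model, Benjamini-Hochberg adjusted), and it was the 1 called gene of the 3, where 11% of all genes tested were called. The response of *Tfe3* was weaker in DKO by 0.16 (adjusted p = 0.0167), which is below a 1.2-fold difference, and that of *Tfeb* differed by 0.01 (95% interval −0.33 to 0.35). The *Mitf* difference lost its call without WT torin1 replicate 2, DKO torin1 replicate 2, DKO DMSO replicate 2 or 4, or WT DMSO replicate 3, where it was 0.53 to 0.57, and with library size alone as scaling, where it was 0.55.

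MK-8722 lowered all 3 genes in WT MEFs, *Mitf* the most. *Mitf* went from 9.80 ± 1.03 to 5.90 ± 0.696 CPM, with 6.04, 5.05, 5.76 and 6.73 CPM in the MK-8722 libraries, all below the DMSO libraries. The log2 change was −0.73 (SE 0.14, adjusted p = 0.000428 by edgeR's quasi-likelihood model, Benjamini-Hochberg adjusted). *Tfeb* fell by 0.39 and *Tfe3* by 0.29, to 17.5 ± 1.59 and 98.5 ± 2.90 CPM, again with no overlap with DMSO. The 3 calls of 3 stand beside 16.1% of all genes tested. The macrophage or osteoclast sum was higher under MK-8722 than under DMSO in both genotypes, and its part in the *Mitf* change was not tested.

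In DKO MEFs under MK-8722, *Mitf* was the 1 called gene of the 3, where 8.69% of all genes tested were called. It fell by 0.42 on the log2 scale (SE 0.13, adjusted p = 0.0215 by edgeR's quasi-likelihood model, Benjamini-Hochberg adjusted), to 18.8, 30.2, 23.8 and 18.5 CPM, and the range overlapped that of DMSO. The library of 30.2 CPM was the one of passage 11, which held the most *Mitf* in each of the 3 DKO groups. Within passages, MK-8722 was below DMSO at all 4 DKO passages, with log2 differences of −0.56 to −0.25. Without DKO MK-8722 replicate 3, the library of the lowest RNA integrity number, the log2 change was −0.44 (adjusted p = 0.0363 by the same model). The call was lost without DKO MK-8722 replicate 1 or 4 or DKO DMSO replicate 1 or 3, where the log2 change was −0.33 to −0.40. *Tfe3* had a log2 difference of −0.09 (adjusted p = 0.0396, below 1.2-fold) and *Tfeb* of −0.15 (95% interval −0.38 to 0.09).

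The genotypes' responses to MK-8722 gave 0 calls among the 3 genes by edgeR, where 5.49% of all genes tested were called. The response of *Tfe3* was weaker in DKO by 0.19 on the log2 scale, below the 1.2-fold limit (adjusted p = 0.00708 by edgeR's quasi-likelihood model, Benjamini-Hochberg adjusted). For *Mitf* the difference was 0.31 (95% interval −0.08 to 0.71) and for *Tfeb* 0.25 (−0.04 to 0.53). The contrasts of both drugs share the DMSO libraries of their genotype.

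**Figure D2:**
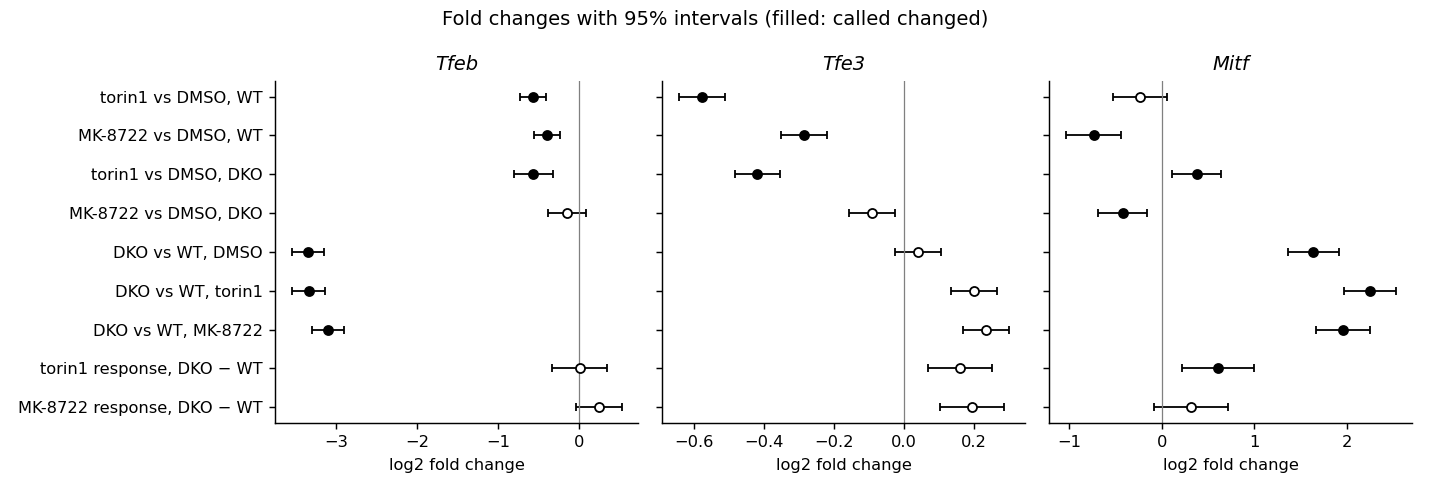
Log2 fold changes of the 3 genes in the 9 contrasts, with 95% intervals from the edgeR fit and filled symbols where the change was called. *Tfeb* lies beyond −3 in the 3 genotype contrasts, *Mitf* lies between 1.64 and 2.25 there, and the *Mitf* response to torin1 is the one called difference between responses.

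**Figure D3:**
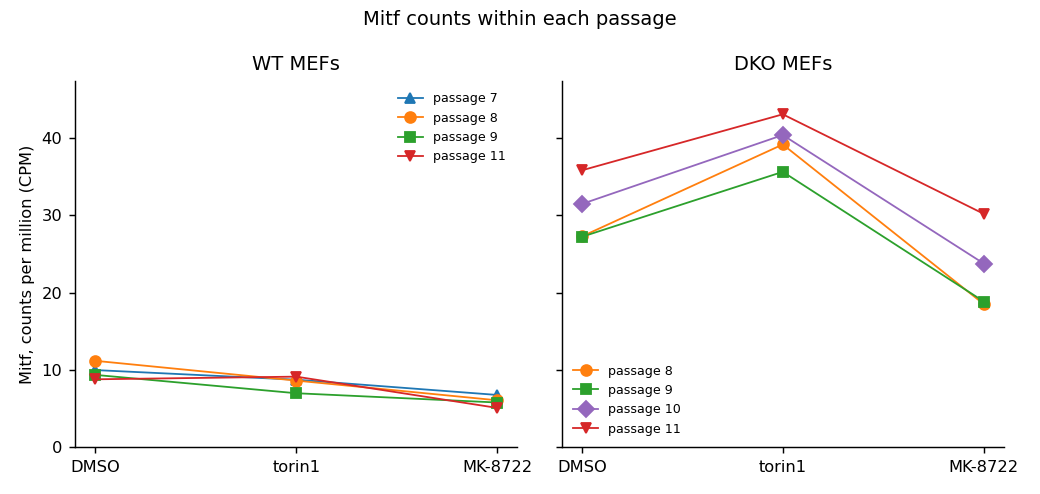
*Mitf* in CPM within each passage, WT on the left and DKO on the right, with lines joining the libraries of 1 passage across the 3 treatments. Every DKO line has its highest point under torin1 and its lowest under MK-8722, and every WT line is lowest under MK-8722.

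The summed TPM of the family is mostly that of *Tfe3*, a gene named in the knockout, at 72.6 TPM in WT and 72.1 in DKO under DMSO. The sum does not show how its parts moved. Between WT and DKO under DMSO, *Tfeb* went from 17.3 to 1.88 TPM and *Mitf* from 4.69 to 15.6 TPM. Under torin1, *Tfeb* was at 12.7 TPM in WT and 1.49 in DKO, *Mitf* at 4.46 and 20.9, and *Tfe3* at 49.3 and 55.9. Under DMSO the sum was 94.6 ± 2.47 TPM in WT and 89.6 ± 3.76 in DKO MEFs (SD, n = 4, two-sided exact permutation p = 0.0857). Under torin1 it was 66.4 ± 1.57 TPM in WT and 78.3 ± 3.70 in DKO, higher in DKO by 11.9 TPM with no overlap (exact permutation p = 0.0286, the smallest that 4 against 4 libraries allow). Under MK-8722 it was 76.3 ± 3.55 and 83.9 ± 8.42 TPM (exact permutation p = 0.171). These sums were added after the values of the single genes were seen.

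*Mitf* took a larger share of that sum in DKO MEFs. Its share was 4.96% ± 0.621 in WT and 17.4% ± 1.86 in DKO under DMSO, 6.73% ± 0.932 and 26.7% ± 0.854 under torin1, and 3.90% ± 0.654 and 14.1% ± 2.90 under MK-8722. The DKO libraries under torin1 held 26.0, 27.9, 26.1 and 26.7%, above all DKO libraries under DMSO. The share of *Tfeb* went the other way, from 18.3% to 2.11% under DMSO, and that of *Tfe3* was 76.8% in WT and 80.5% in DKO. Of 21 share comparisons over the 3 genes and 7 contrasts, 10 reached the smallest exact permutation p of 0.0286, unadjusted. They include all 6 genotype contrasts of *Tfeb* and *Mitf*.

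**Figure D4:**
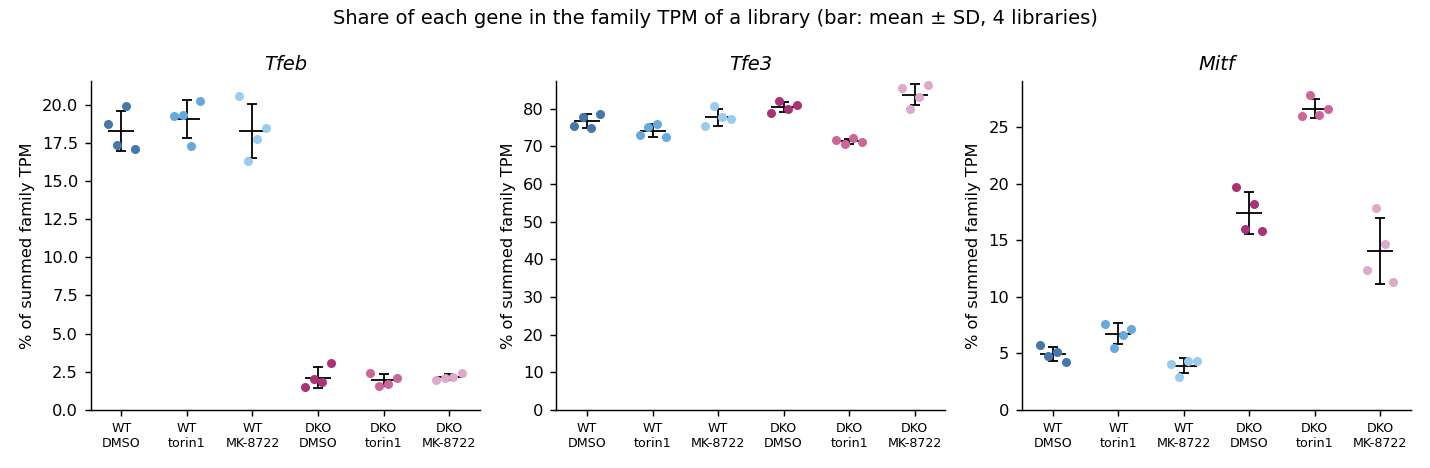
Share of each gene in the family's summed TPM per library, in percent, with bars for the mean ± SD of 4 libraries. *Mitf* reaches 26.7% on average in DKO MEFs under torin1 against 6.73% in WT, while *Tfeb* stays near 2% in all DKO groups.

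At transcript level, salmon divided the reads among overlapping transcripts, and the tests leave out the error of that division, for which no estimate was at hand. Of the 37 transcripts, 36 had a count in some library and 23 passed the filter on low counts, 4 of *Tfeb*, 12 of *Tfe3* and 7 of *Mitf*. Between genotypes, 11 of the 23 were called under DMSO, 13 under torin1 and 10 under MK-8722, where 24.8%, 27.7% and 25.6% of all 57945 transcripts tested were called. All 4 *Tfeb* transcripts were lower in DKO under each treatment. Of the 7 *Mitf* transcripts, 4, 6 and 3 were higher and 0 were lower. When 1 of the 24 libraries was left out at a time, Tfeb-212 under MK-8722 and Mitf-204 under torin1 each lost their call in 7 fits. Mitf-201 under DMSO, Mitf-205 under torin1 and Mitf-203 under MK-8722 were called with 0 reads in all 4 WT libraries of that treatment.

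Mitf-202, the longest A-type transcript and the most abundant one of the gene, went from 2.17 ± 0.288 TPM in WT to 6.12 ± 0.775 TPM in DKO under DMSO. Its log2 difference in counts was 1.50 (SE 0.14, adjusted p = 1.05e-08 by edgeR's quasi-likelihood model, Benjamini-Hochberg adjusted), and it was 2.23 under torin1 and 1.77 under MK-8722. Mitf-207, which shares its first exon, was higher by 1.54, 1.79 and 2.25. Tfeb-202, which carried the largest share of *Tfeb*, had log2 differences of −3.48, −2.98 and −3.49 in DKO. The *Tfe3* transcripts were less uniform, with 2 higher and 1 lower under DMSO, and 3 higher and 0 lower under each drug. Of these 9 calls, 8 were lost without 1 library or another. With each of the 24 libraries left out in turn, the calls of Tfe3-201, Tfe3-211 and Tfe3-205 under DMSO were lost in 9, 6 and 6 fits, those of Tfe3-204 and Tfe3-205 under torin1 in 3 and 4, and those of Tfe3-214, Tfe3-205 and Tfe3-203 under MK-8722 in 18, 4 and 1, while that of Tfe3-208 under torin1 was lost in 0.

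Torin1 lowered 6 of the 12 tested *Tfe3* transcripts in WT MEFs and raised 0, and with 1 *Tfeb* transcript that made 7 of 23 called, beside 22.8% of all transcripts tested. The largest of these falls was that of Tfe3-204, by 0.96 on the log2 scale (SE 0.14, adjusted p = 1.14e-05 by edgeR's quasi-likelihood model, Benjamini-Hochberg adjusted), and Tfe3-203 fell by 0.89. Under MK-8722 in WT, Tfe3-203 fell by 0.68 and Mitf-202 by 0.68, and 3 of 23 were called beside 5.42%. The remaining call was that of Mitf-203, at 0 reads in all 4 MK-8722 libraries and in 1 DMSO library, and it was lost with limma voom. In DKO MEFs, torin1 raised Mitf-202 by 0.43 and lowered Tfe3-203 by 0.55 and Tfe3-205 by 0.57, with 4 of 23 called beside 22.3%. The remaining call was that of Tfeb-204, lower and at 0 reads in all 4 DKO torin1 libraries. MK-8722 gave 0 calls in DKO beside 1.56%. One transcript had a called difference between the responses, Mitf-202 for torin1, at 0.73 (SE 0.19, adjusted p = 0.0475 by the same model), beside 1.87%, and MK-8722 had 0, beside 0.858%. That call did not hold with library size alone, with no filter, with limma voom or without the 3 WT libraries of passage 11.

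Transcript use asks whether a transcript moved apart from the rest of its gene. Of 207 tests over the 23 transcripts and 9 contrasts, 2 were called by edgeR's diffSpliceDGE, and 24 had an unadjusted p under 0.05. Over all transcripts, the called share was 0.428% for torin1 and 0.0299% for MK-8722 in WT, 0.551% and 0.0243% in DKO, 0.202%, 0.336% and 0.262% between genotypes under DMSO, torin1 and MK-8722, and 0.00935% and 0.0187% for the responses to torin1 and MK-8722. Both calls were between genotypes. Tfe3-211 held 1.93, 0.760, 0.774 and 1.01 TPM in WT and 2.52, 1.94, 2.80 and 2.33 TPM in DKO under DMSO, and its use was higher in DKO by 1.10 on the log2 scale (adjusted p = 0.0281). Mitf-203 was at 0 reads in all 4 WT libraries under MK-8722 and at 36.1 to 55.2 reads in the DKO libraries (adjusted p = 0.0459). It was also at 0 in 1 WT library under DMSO and 1 under torin1. Neither call held without the 3 WT libraries of passage 11.

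Among *Mitf* transcripts, those of the A type held the largest share in each group. Mitf-202 made up 47.0% of the gene's TPM in WT under DMSO and 39.2% in DKO, and it was between 38.0 and 60.2% in every WT library but one, at 37.3%. The A-type start as a whole (Mitf-202, Mitf-206 and Mitf-207) held 67.9% ± 18.9 of the TPM in WT and 57.1% ± 3.14 in DKO under DMSO, and the M-type start (Mitf-201, Mitf-205 and Mitf-208) 13.5% ± 15.8 and 26.1% ± 3.07. The WT libraries under DMSO held 24.4, 29.8, 0 and 0% on the M-type start, so the spread within the group was as wide as the difference. No comparison of either start reached an exact permutation p under 0.05, which with this spread does not show that the shares were alike. Of single *Mitf* transcripts, Mitf-207 held 29.6, 28.2, 24.1 and 21.95% in WT under torin1 and 18.6, 14.6, 21.6 and 19.3% in DKO. The difference was −7.42 percentage points with no overlap (exact permutation p = 0.0286, 1 of 10 such among 137 comparisons of single transcripts, unadjusted). M-type transcripts were assigned reads here although the 12 melanocyte markers summed to at most 2.18 CPM.

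An 18-base stretch at the 5′ end of a *Mitf* exon (chr6:98006123-98006140) is present in Mitf-201 to Mitf-205 and absent from Mitf-207 and Mitf-208, and it is shown in capitals in its transcript context, above the same place in Mitf-207. In WT MEFs, transcripts with the stretch made up 62.6, 64.4, 73.6 and 69.1% under DMSO and 52.0, 54.3, 56.5 and 62.4% under torin1. The mean difference was −11.1 percentage points with no overlap (exact permutation p = 0.0286, 1 of 11 such among 107 comparisons of exon differences, unadjusted). The transcripts without the stretch had few reads in WT. Mitf-207 had 25.5 to 46.3 per library under DMSO and 36.0 to 57.6 under torin1, and Mitf-208 0 to 26.2 and 12.1 to 16.9. Both also differ from the other transcripts elsewhere, so the share does not measure the stretch alone. In DKO MEFs the shares were 62.1% under DMSO, 62.4% under torin1 and 62.7% under MK-8722.
Mitf-202 around the 18-base stretch: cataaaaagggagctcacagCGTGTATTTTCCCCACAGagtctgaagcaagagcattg
Mitf-207 across the same place: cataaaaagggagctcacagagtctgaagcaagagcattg

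The share of *Tfe3* TPM by first exon differed between torin1 and DMSO in WT MEFs. In that contrast diffSpliceDGE called 0 of the 12 *Tfe3* transcripts for use, and 2 had an unadjusted p under 0.05. Transcripts were grouped, after their values were seen, by first exon into an upstream start (Tfe3-201, Tfe3-202, Tfe3-206, Tfe3-207, Tfe3-211 and Tfe3-212), a middle start (Tfe3-204 and Tfe3-214) and a downstream start (Tfe3-203 and Tfe3-205). The upstream start held 38.1, 36.2, 38.9 and 35.2% of the gene's TPM in WT under DMSO and 44.8, 44.1, 46.4 and 45.4% under torin1. That was 8.12 percentage points more, with no overlap (exact permutation p = 0.0286, unadjusted). Of the upstream group, Tfe3-206 and Tfe3-211 share the coding start of Tfe3-204. Tfe3-207 and Tfe3-212 are annotated as transcripts of nonsense-mediated decay and of a retained intron. Grouped by coding start, 0 of 12 *Tfe3* drug comparisons of TPM shares had an exact permutation p under 0.05. The middle start fell, from 35.0% ± 1.25 to 28.5% ± 1.33, a difference of −6.56 points (exact permutation p = 0.0286). Part of this fall rests on few reads. Tfe3-214, of 408 bases, held 11.2 TPM from 54.5 to 72.2 reads per library under DMSO. Under torin1 it held 6.18 TPM from 22.9 to 40.5 reads. Tfe3-204 went from 14.2 to 7.83 TPM. Under MK-8722 the upstream share in WT was 46.3, 42.4, 39.0 and 42.6%, 5.50 points above DMSO (exact permutation p = 0.0286) and higher by 3.83 to 7.41 points within the 4 passages, but by shares of reads in place of TPM the exact permutation p was 0.114.

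In DKO MEFs the upstream *Tfe3* share was 36.6% ± 1.57 under DMSO, 39.0% ± 2.21 under torin1 and 37.8% ± 3.57 under MK-8722, and neither drug reached an exact permutation p under 0.05. Under torin1 the upstream share was lower in DKO than in WT, a difference of −6.20 points with no overlap (exact permutation p = 0.0286, and the same by shares of reads). The downstream start fell in DKO from 27.3% ± 1.33 to 24.5% ± 1.00 under torin1 and 24.1% ± 1.85 under MK-8722, with an exact permutation p of 0.0286 for each drug. Of 137 start comparisons over the 3 genes, 11 reached that value. The difference between the responses of the genotypes was not tested on shares, and the model of transcript use called 0 *Tfe3* transcripts for it. Of the 12 *Tfe3* transcripts, 2 had an unadjusted p under 0.05 by diffSpliceDGE with torin1 and 0 with MK-8722.

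**Figure D5:**
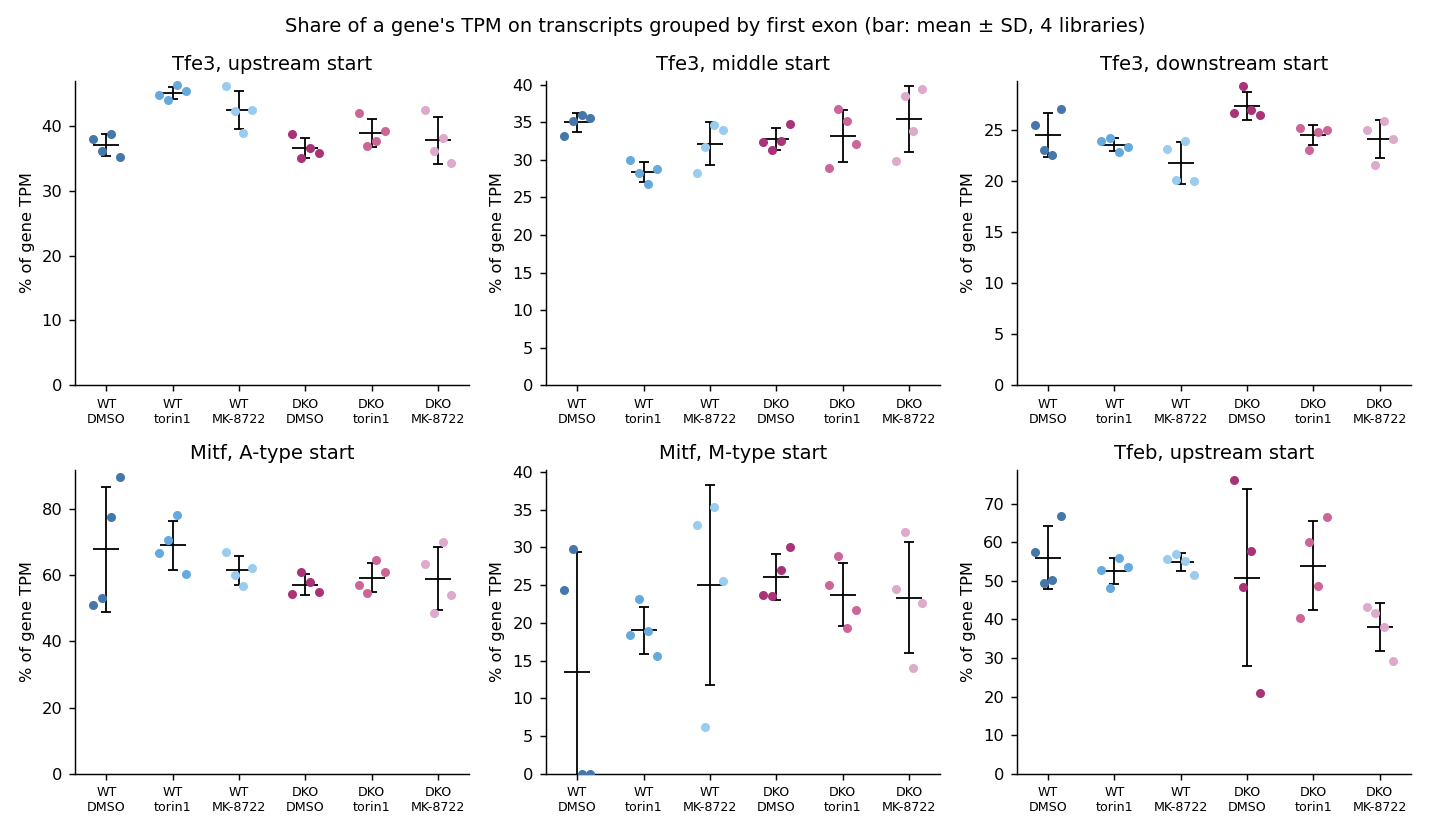
Share of a gene's TPM, in percent, on transcripts grouped by first exon, with 1 point per library and bars for the mean ± SD of 4 libraries. The upstream *Tfe3* share is 45.2% on average under torin1 in WT against 37.1% under DMSO, and the *Mitf* and *Tfeb* panels show libraries of 1 group spread widely.

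A 105-base *Tfe3* exon (chrX:7767893-7767997), skipped in Tfe3-202 and Tfe3-205, is printed in capitals within Tfe3-204 because its share also differed between genotypes. It was included in 71.0, 75.3, 74.7 and 70.8% of the TPM in WT under DMSO and in 70.3, 70.3, 69.3 and 68.8% in DKO. The difference was −3.30 points (exact permutation p = 0.0286, 1 of 11 such among 107 comparisons of exon differences, unadjusted). Tfe3-205, of the downstream start, also lacks a 114-base exon, so the share does not measure the 105-base exon alone. Under torin1 the groups overlapped, at 70.5% ± 2.97 in WT and 71.2% ± 0.827 in DKO.
Tfe3-204 around the 105-base exon: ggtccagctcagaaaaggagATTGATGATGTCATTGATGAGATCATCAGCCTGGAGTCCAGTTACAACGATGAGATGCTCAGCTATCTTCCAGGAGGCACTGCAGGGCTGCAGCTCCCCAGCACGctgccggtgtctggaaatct

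The transcripts of *Tfeb* were led by Tfeb-202, with 56.0% of the gene's TPM in WT under DMSO, 52.6% under torin1 and 54.8% under MK-8722. In DKO MEFs it held 50.8%, 54.0% and 38.0%, and the libraries under DMSO ran from 21.01 to 76.0%. Under MK-8722 the DKO libraries held 43.2, 41.8, 37.9 and 29.2% and the WT libraries 51.4 to 57.1%, a difference of −16.8 points with no overlap (exact permutation p = 0.0286, unadjusted). Tfeb-204 was at 0 in all 4 DKO libraries under torin1 and at 7.38 to 13.1% in WT, a difference of −11.3 points (exact permutation p = 0.0286, unadjusted). The 12 DKO libraries held 36 to 66 reads of the gene each, and no difference of *Tfeb* transcript use was called by diffSpliceDGE. The 8 *Tfeb* transcripts that did not reach a mean of 5% in any group summed to 0 to 12.6% per library, the 6 such *Tfe3* transcripts to 4.24 to 10.0% and the 3 such *Mitf* transcripts to 0 to 11.5%.

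Known targets of the family were counted from a list of 30 lysosomal, autophagy and feedback genes, all of which were tested. In WT MEFs, 28 rose and 0 fell with each drug, where 26.6% and 10.3% of all genes tested rose with torin1 and MK-8722, with a median log2 change of 0.87 for torin1 and 0.88 for MK-8722, against medians of 0.05 and −0.01 over all genes. *Gpnmb*, a lysosomal membrane glycoprotein, had the largest rise with both, by 4.80 and 3.95, followed under torin1 by *Rragd*, a Rag GTPase, by 2.10 and *Tpp1*, a lysosomal peptidase, by 1.46. Under MK-8722 *Neu1*, a sialidase, rose by 1.97. *Psap*, the precursor of the saposins, was among the smallest rises, by 0.36 and 0.35.

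In DKO MEFs, 9 of the 30 targets rose and 4 fell with torin1, where 43.2% of all genes tested were called, and 6 rose and 0 fell with MK-8722, where 8.69% were. The 13 calls with torin1 are near the share over all genes. *Wipi1*, an autophagy protein that binds phosphoinositides, rose by 1.14 and *Neu1* fell by 0.84 with torin1. The response was lower in DKO for 24 targets with torin1 and 26 with MK-8722, where 6.33% and 4.08% of all genes had a called lower response. Under DMSO, 14 targets were higher and 3 lower in DKO than in WT, where 48.2% of all genes tested were called, with *Gpnmb* at a log2 difference of 1.70 and *Rragd* at −3.06. The list was written with earlier results of these data known, so its counts are a description.

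The 36 listed regulators of the family, from the MTORC1, Rag, folliculin and AMPK pathways, moved both ways in WT MEFs with torin1, 10 up and 11 down, where 47.1% of all genes tested were called. There are 6 genes that stand in both lists, *Flcn*, *Fnip1*, *Fnip2*, *Mcoln1*, *Rragc* and *Rragd*. The largest rises with torin1 were those of *Rragd*, of *Mcoln1*, a lysosomal calcium channel, by 1.42 and of *Rragb* by 1.38, and the largest falls those of *Sfn*, *Ywhag* and *Ywhaz*, which encode proteins of the family that holds TFEB in the cytosol, at log2 changes of −0.92, −0.77 and −0.77. With MK-8722, 13 rose and 2 fell, where 16.1% of all genes tested were called. Among those that rose were *Fnip1* and *Flcn*, partners in the folliculin complex, by 1.46 and 1.36 on the log2 scale. In DKO, 6 rose and 16 fell with torin1, where 43.2% of all genes tested were called, and 3 rose and 0 fell with MK-8722, near the 8.69% of all genes. *Rragb* was higher in DKO than in WT under DMSO by 3.25 on the log2 scale.

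By Pearson's r of log2 CPM over the 12 WT libraries, the genes most like *Tfe3* were *Klhdc4* (r = 0.994), *Emc8* (0.990) and *Ptpa* (0.988), those most like *Tfeb* were *Bace1* (0.973), *Ppp6r1* (0.972) and *Marcksl1* (0.956), and those most like *Mitf* were *A630072M18Rik* (0.944), *Vmn1r43* (0.941) and *Gm45902* (0.939). Over the 12 DKO libraries they were *Rraga* (0.993), *Jdp2* (0.991) and *Herpud1* (0.990) for *Tfe3*, *Sap18* (0.971), *Krt10* (0.957) and *Snrpf* (0.953) for *Tfeb*, and *Stk10* (0.973), *Ppp1r10* (0.969) and *Plscr1* (0.966) for *Mitf*. The points of each r share the 3 treatments and their depth.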

How the data were processed

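mRNA of 24 MEF libraries was read as pairs. The authors ran nf-core/rnaseq with STAR and salmon on GRCm38 (Ensembl annotation), took molecular identifiers into account, and deposited estimated counts and TPM for transcripts and genes, where a gene's count is the sum of its transcripts. Both are read as deposited, and estimated counts were rounded. Their methods name a batch correction with limma, but the labels give 1 batch, so none was applied.

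edgeR 4.0.16 (R 4.3.3) fitted 1 mean per group over 15401 genes or 57945 transcripts (filterByExpr, minimum count 10, TMM), with 18 residual degrees of freedom. A call needed at least 1.2-fold and a Benjamini-Hochberg adjusted p under 0.05, in each of 9 contrasts. diffSpliceDGE tested use over 53503 transcripts. Shares were compared by two-sided exact permutation over 70 splits (SciPy 1.17.1), unadjusted. Fits were tested on simulated data. A further coding sequence is not reported here. Transcript lengths of all 37 members equal those of GENCODE M21. limma 3.58.1 and DESeq2 1.42.0 served as alternatives, beside other scalings, filters, blocks and left-out libraries. Intervals come from the edgeR model and rest on the spread between libraries, and the limit for *Tfec* covers counting error only. Same-passage libraries of a genotype deviated together at r = 0.02 to 0.66 in WT and 0.05 to 0.24 in DKO, with every pair over 0.1 for WT DMSO with WT MK-8722 alone, and passage as a factor was an alternative. The permutation tests of shares do not take passage into account.

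Named transcripts had a mean share of at least 5% in any group. Named list genes are among the 3 largest or 3 smallest called changes. Members and lists were chosen with earlier results of these data known. Start, exon and coding-start groupings, family sums and the leaving out of passage 11 were added after the data were seen.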

Additional observations from a re-analysis of the deposited data

Results flagged for a closer look

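Across 184 groups of 4 libraries, 9 had 1 library far from the other 3. Chance alone puts about 1 in 20 groups there if values are normally distributed. That rate need not hold for shares of transcripts with many libraries at 0. All 9 were among the 112 groups of transcript shares of a gene's TPM, and 0 among the 18 groups of gene levels in CPM. For *Mitf*, Mitf-203 held 14.99% in DKO DMSO replicate 4 against 7.90 to 8.47% in the others, and Mitf-208 held 11.9% in DKO MK-8722 replicate 3 against 20.4 to 21.1%, and that library had an RNA integrity number of 7.9 against 9.7 to 9.9 in the others. For *Tfe3*, Tfe3-201 held 11.8% in DKO DMSO replicate 2 against 8.51 to 8.82%, and Tfe3-207 held 2.47% in DKO torin1 replicate 4 against 4.83 to 5.23% and 4.71% in WT MK-8722 replicate 3 against 6.03 to 6.17%. For *Tfeb*, Tfeb-204 held 5.57% in WT DMSO replicate 4 against 14.5 to 15.1%, while Tfeb-205 in WT DMSO replicate 3 (3.18%), Tfeb-215 in WT DMSO replicate 4 (5.53%) and Tfeb-215 in WT torin1 replicate 4 (3.82%) were above 0 where the other 3 libraries were at 0.

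The response to a drug differed between genotypes, by the test of the difference in edgeR's quasi-likelihood model (Benjamini-Hochberg adjusted), for *Mitf* with torin1 by 0.61 on the log2 scale, for *Tfe3* with torin1 by 0.16 and for *Tfe3* with MK-8722 by 0.19. The latter 2 differences are below 1.2-fold.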

How the results depend on the processing

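The depth of *Tfeb* in DKO and of *Mitf* transcripts in WT limits their shares. Under 9 other settings, 239 of 243 gene-level values of the family kept their direction and side of the threshold, and with each of 24 libraries left out in turn 632 of 648 did. Replicate numbers did not pair the samples across all groups (lowest same-number correlation of deviations −0.41). For DKO torin1 with DKO MK-8722 they match the passages, and the correlations were 0.07 to 0.15. Neither the replicate block nor passage as a factor changed a gene-level call.

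With library size alone, *Tfe3* between genotypes under DMSO turned to −0.031, the *Tfeb* torin1 response difference to −0.048, and that of *Mitf* (0.55) lost its call. With a stricter filter the *Tfeb* value was −0.0029. Calls of transcript counts for the responses, 1 as reported, were 0 with library size alone, no filter, limma voom or without the WT passage 11 libraries, and 2 with the replicate block. Calls of transcript use between genotypes, 2 as reported, were 1 with the replicate block, passage as a factor or voom with diffSplice, and 0 without passage 11. Calls of use with a drug were 1 in place of 0 with no filter. Start shares between genotypes with an exact p under 0.05 were 11 by reads and 5 by TPM. The causes were not tested.

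With 1 library left out, *Mitf* with torin1 in DKO was 0.32 to 0.47, with MK-8722 in DKO −0.58 to −0.33, and its torin1 response difference 0.53 to 0.71, while that of *Tfeb* was −0.047 to 0.094. Calls ran from 0 to 2 for response transcripts, 0 to 2 for use between genotypes, and 0 to 1 for use with a drug and for its responses.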
